A study of Mus musculus with 38 samples.

Results

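The loci of 10 genes that control the cell cycle or act as oncogenes or tumour suppressors were examined in mouse epidermal stem cells (EpdSCs) in which the transcription factor SOX9 was switched on. They were chosen by name, and each locus was taken as the annotated gene body with 50 kb on either side (genome build GRCm38/mm10). All 10 were found among 21938 protein-coding genes. Any called interval that reached into a window by 1 bp or more was counted in 5 lists of H3K27ac peaks and 5 lists of H3K4me1 domains from skin, and in 4 lists of H3K4me1 intervals from cultured keratinocytes. Cdkn2a and Cdkn2b lie side by side and their windows share 88.4 kb, so the 10 windows form 9 separate regions, which together span 1222 kb. Values of these neighbours are therefore not independent of each other.

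A cell passes from growth into DNA replication when D-type cyclins bind the kinases CDK4 and CDK6, which phosphorylate the retinoblastoma protein and free E2F factors to switch on replication genes. The inhibitors p15 (Cdkn2b) and p16 (Cdkn2a) block those kinases, p21 (Cdkn1a) blocks cyclin and kinase pairs more widely, and p19ARF, read from Cdkn2a in another frame, protects p53 (Trp53), which in turn activates Cdkn1a. MYC drives growth and division in the basal epidermis. H3K27ac marks active promoters and enhancers, and H3K4me1 marks enhancers whether or not they are active and tends to flank, not cover, the start sites of active genes.

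Skin cells came from male K14rtTA; TRE-myc-Sox9 mice, in which the Krt14 promoter confines the DOX-dependent activator to skin epithelium and DOX switches on MYC-tagged SOX9. Back skin EpdSCs were sorted as negative for CD31, CD45, CD117, CD140a and CD34 and high for CD49f and Ly6A, before DOX (D0) and at week 1 (W1), W2 and W6 of DOX, which was injected at P21 and continued in feed. For W12, neonatal skin of the same genotype was grafted onto immunocompromised Nude mice and induced after it had healed, so that grafting and time on DOX cannot be told apart at W12. In culture, K14rtTA keratinocytes received lentiviral SOX9 that was wild type (WT), lacked the HMG DNA-binding domain (ΔHMG) or lacked the transactivation domain (ΔTA), with WT also kept without DOX as the reference.

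The series held 38 samples in 16 groups, of which 12 were skin H3K27ac, 12 skin H3K4me1, 12 skin total H3 and 2 culture H3K4me1. Libraries came from a high or a low MNase digest, and every list pools replicates. The W12 reads were split by barcode from libraries that also held a W2 replicate, as were the 4 culture conditions from 2 shared libraries, and no spread between replicates can be read from these lists. Differences below are therefore descriptions without a test, and total H3 had no list to use. H3K27ac lists held 29081 to 33985 peaks covering 23.1 to 32.1 Mb, with the least cover at W12, where the median peak was 476 bp wide against 635 to 821 bp in the other lists. H3K4me1 lists of skin held 69439 to 87287 domains covering 264 to 310 Mb, and the culture lists 110589 to 123338 intervals covering 120 to 133 Mb. All 5 markers of EpdSCs that were checked (Krt5, Krt14, Itga6, Trp63 and Col17a1) had an H3K27ac peak within 1 kb of a start site in all 5 lists. Of 10 markers of cells that the sort should leave out, 1 or 2 had such a peak in each list, namely the melanocyte genes Pmel (D0, W1 and W2) and Dct (W1) and the endothelial gene Pecam1 (W6 and W12). In the skin H3K4me1 lists, all 5 EpdSC markers and 5 to 7 of those 10 had a domain within 1 kb of a start, with Pecam1, Pdgfra, Col1a1, Dct and Pmel in each list, and the part of other cells in the H3K4me1 results was not tested.

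The median member had more of its window covered than the median gene in all 14 lists. At D0, H3K27ac peaks covered a median of 3.50% of a member's window, against 1.42% over all protein-coding genes, and the median member stayed above the median gene in each later list (3.64% (W1), 2.85% (W2), 3.76% (W6) and 2.57% (W12)). The highest cover at D0 was 9.25% at Myc and the lowest was 0 at Mycn. An H3K27ac peak stood within 1 kb of the gene's own start site for 8 members at D0, 6 (W1), 6 (W2), 8 (W6) and 6 (W12). Among all protein-coding genes the shares were 44.5% at D0, 43.1% (W1), 44.1% (W2), 48.4% (W6) and 36.2% (W12). Myc, Cdk6, Ccnd2, Cdkn1a and Trp53 had a start site peak in every list, while Cdkn2a had none in any.

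Peaks of the 5 lists that overlapped were joined into 65 sites. Of these, 12 held a peak in every list, 30 in a single list, 4 of those at D0 alone, and none was missing at D0 and present in all later lists. Almost every site, 63 of 65, lay in an H3K4me1 domain of at least 1 time point, and 53 lay in a domain of all 5. Sites were joined in these windows only, so no share over all sites stands beside these counts. They cannot show whether the loci differ from others. Among D0 peaks, 30.8% in these windows and 34.3% of all had a peak in every later list.

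To compare a locus between lists, its covered bases (the bases of the window that lie in at least 1 interval) were set against D0 in skin, and it was called higher or lower when they differed by 1.5 times or more and by 500 bp or more. At W1, no member was called higher and 2 were called lower (Ccnd1 and Cdkn2a), while among protein-coding genes with a peak 15.8% were called higher and 15.8% lower. At W2, Mycn was called higher (background 21.5%) and Cdkn2a lower (13.9%). At W6, Cdkn2a, Cdkn2b and Trp53 were called higher (background 25.6%) and Cdk6 lower (11%). At W12, Ccnd1, Ccnd2, Myc, Trp53 and Mki67 were called lower, 5 of 9 members with a peak, where the background was 37.7%, and Cdkn2a and Cdkn2b higher, where it was 13.7%. These higher calls rest on the same pair of peaks in the shared region. After scaling to the total cover of each list, an alternative chosen after seeing the data, 6 members were called lower at W2 (Ccnd1, Ccnd2, Cdk6, Cdkn1a, Cdkn2a and Mki67, background 21.2%), none was called higher at W6, and Myc was no longer called at W12.

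**Figure D1:**
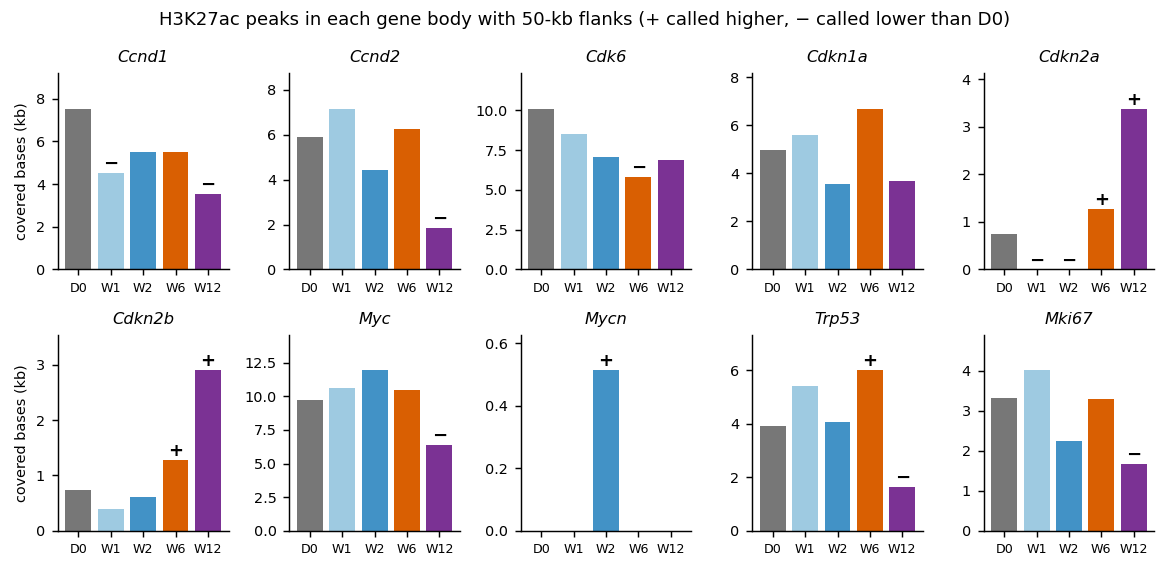
Bases covered by H3K27ac peaks (kb, linear axis from 0, own scale per gene) in the gene body with 50-kb flanks of each member, at D0, W1, W2, W6 and W12, 1 pooled list per bar and so without error bars. Plus and minus signs mark calls against D0: cover of the Cdkn2a and Cdkn2b windows is highest at W12, while 5 other loci are called lower there.

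Ccnd1 encodes cyclin D1, and its window on chromosome 7 (gene body 144929931 to 144939925, minus strand) also holds the start sites of LTO1 and Fgf15. H3K27ac covered 7.54 kb of it at D0, 4.52 kb (W1), 5.49 kb (W2), 5.52 kb (W6) and 3.53 kb (W12), so every later list was below D0 and W1 and W12 passed the call. A peak in an intron, 1.74 kb downstream of the start, was missing at W1 and the peak 1.40 kb upstream was missing at W12. Distances here run from a peak's highest summit to the nearest annotated start site of the gene. A peak about 32.4 kb upstream, in intergenic sequence, was kept in all 5 lists and covered 1143 to 1837 bp. A site over the start of LTO1, 24.6 kb downstream of the Ccnd1 start, was also in all 5 lists. It had the highest fold of the window at D0 (top 17.2%) and W6 (top 9.50%), so part of this cover may belong to LTO1. Upstream peaks at 24.6 kb and 31.2 kb were missing at W6 only. Both calls were lost with peaks above the list median only, and that of W1 also at a fold of 2.

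Ccnd2 (chromosome 6, 127125162 to 127152193, minus strand) encodes cyclin D2. Its cover was 5.90 kb at D0, 7.16 kb (W1), 4.45 kb (W2), 6.25 kb (W6) and 1.83 kb (W12), 0.311 times the D0 value at W12, a call that held under all 9 alternatives. Both sites at the start were present in every list, and it was their width that differed: the intronic site spanned 2556 bp at D0 and 774 bp at W12, and the upstream site 2307 bp and 1059 bp. A peak 49.5 kb upstream was in the D0 and W1 lists only.

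Cdk6 (chromosome 5, 3341485 to 3531008, plus strand) encodes the kinase partner of D cyclins and is the longest member. Covered bases were 10.1 kb at D0, 8.53 kb (W1), 7.10 kb (W2), 5.83 kb (W6) and 6.87 kb (W12). The start site peak hardly changed, at 3292 to 3625 bp in all 5 lists, whereas a site in an intron 172 kb downstream of the start went from 2222 bp at D0 to 439 bp at W6. Another intronic site, 165 kb downstream, was missing at W2 and ranked in the top 1.44% of the W12 list, against the top 13.5% at D0 and 33.9% at W6. The highest-ranked peak of the window at D0 (top 8.22%) lay at the start of Fam133b, 200 kb downstream of the Cdk6 start, and was in all 5 lists. The W6 call was lost at a fold of 2. Ranks within a list are given here since fold enrichment depends on depth and is not on a common scale between lists.

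Of the 4 H3K27ac peaks in the 9 regions that were present at D0 and in no later list, 2 lay at Cdk6 and 2 in Rab44, downstream of Cdkn1a. All ranked in the lower part of the D0 list, at 62.4% to 83.6% from the top. The peaks in Rab44 covered 373 bp and 491 bp, and those at Cdk6 covered 707 bp (42.8 kb upstream, intergenic) and 467 bp (intron). The sequence of 300 bases around the summit of the wider Cdk6 peak is shown because it is the widest of the 4 lost peaks (chr5:3300905-3301204, plus strand, GRCm38, from RefSeq). In this and the sequences below, 300-base windows were searched on both strands for the SOX core ACAAAG and ACAATG, AP1 TGANTCA, RUNX TGTGGT and the E2F core GCGGGAA and GCGCCAA, and matches are in capitals. Over all 156394 H3K27ac summit windows of that length, 21.8% held ACAAAG, 12% ACAATG, 9.02% the AP1 letters, 18.8% the RUNX letters, 3.38% GCGGGAA and 1.43% GCGCCAA. The window held 1 AP1 match, which begins at base 5, counted from 1 at the 5′ end, and so lies before the called peak, which starts at 3300963.
Cdk6 lost peak: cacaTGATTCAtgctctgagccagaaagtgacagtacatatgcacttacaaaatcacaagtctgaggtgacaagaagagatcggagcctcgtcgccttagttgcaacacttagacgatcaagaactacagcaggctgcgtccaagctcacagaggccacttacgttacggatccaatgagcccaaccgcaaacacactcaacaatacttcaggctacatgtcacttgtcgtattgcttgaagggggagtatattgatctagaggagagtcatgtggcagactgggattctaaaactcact

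Cdkn1a encodes the p53 target p21, and its window (chromosome 17, gene body 29090976 to 29100727, plus strand) had the highest share of H3K4me1 of the members in skin. H3K27ac cover was 4.97 kb at D0, 5.60 kb (W1), 3.58 kb (W2), 6.70 kb (W6) and 3.70 kb (W12), and no list passed the call. The start site peak was in the top 2.17% of the D0 list and in the top 7.07% (W1), 13.1% (W2), 9.92% (W6) and 5.29% (W12). Outside the gene, a peak 11.5 kb upstream, within 1 kb of the start of Trp53cor1 (a p53-induced long non-coding RNA), and a peak 21.7 kb upstream in its intron were in the W1, W2 and W6 lists and in neither D0 nor W12. They covered 324 to 1154 bp and 567 to 749 bp, and all ranked in the lower part of their lists, at 58.7% to 93.3%. Both stood in H3K4me1 domains at every time point. At W12 the only peak outside the start was a site of 1803 bp, 18.6 kb downstream in an intron of Rab44, that no earlier list had.

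Cdkn2a and Cdkn2b, which encode p16 with p19ARF and p15, had little H3K27ac before SOX9 and more at the end. Over the Cdkn2a window (chromosome 4, gene body 89274471 to 89294653, minus strand), peaks covered 0.742 kb at D0, 0 (W1), 0 (W2), 1.28 kb (W6) and 3.38 kb (W12). For Cdkn2b (89306299 to 89311039, minus strand), covered bases were 0.742 kb, 0.395 kb, 0.613 kb, 1.28 kb and 2.91 kb in the same order. The W12 cover was 4.55 times the D0 cover at Cdkn2a and 3.92 times at Cdkn2b, and in both windows it was above 77.7% and 77.3% of all protein-coding genes, from 36.1% and 37.7% at D0.

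The start of Cdkn2b was the main site, with its highest summit 18 bp inside the gene. It held a peak of 742 bp at D0, none at W1 or W2, 843 bp at W6 and then 1572 bp at W12, and its rank in the list went from 49.4% at D0 to 23.0% at W6 and 8.02% at W12. A further peak of 1807 bp, 24.7 kb downstream of the Cdkn2a start in an intron of the non-coding gene Gm12606, appeared at W12 only, in the top 18.5%, and H3K4me1 domains covered its position at W6 and W12 but in no earlier list. Cdkn2a's own starts had no H3K27ac peak within 1 kb at any time. The W6 calls of both genes were lost with 10 kb flanks, with the gene body alone, with peaks above the list median only, at a fold of 2 and after scaling to list cover, while the W12 call of Cdkn2b held under all 9 alternatives. That of Cdkn2a was lost with 10 kb flanks and with the gene body alone, since both peaks lie further out. Its lower calls at W1 and W2 were lost with those flanks too, and without peaks at other protein-coding genes' starts.

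The 300 bases before the Cdkn2b start (chr4:89311040-89311339, minus strand, GRCm38) and around the summit of the W12 peak (chr4:89257300-89257599, minus strand) are shown because the change at this region rests on these sites. The first held none of the motif letters. The second held 1 RUNX match, beginning at base 284, and an unbroken TG run of 52 bases.
Cdkn2b promoter: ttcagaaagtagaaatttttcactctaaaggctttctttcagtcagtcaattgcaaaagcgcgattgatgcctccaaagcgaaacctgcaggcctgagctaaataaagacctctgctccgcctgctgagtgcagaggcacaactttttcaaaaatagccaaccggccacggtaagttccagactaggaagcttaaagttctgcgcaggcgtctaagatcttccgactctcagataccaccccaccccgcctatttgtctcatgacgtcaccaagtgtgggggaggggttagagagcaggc
Cdkn2a W12 peak: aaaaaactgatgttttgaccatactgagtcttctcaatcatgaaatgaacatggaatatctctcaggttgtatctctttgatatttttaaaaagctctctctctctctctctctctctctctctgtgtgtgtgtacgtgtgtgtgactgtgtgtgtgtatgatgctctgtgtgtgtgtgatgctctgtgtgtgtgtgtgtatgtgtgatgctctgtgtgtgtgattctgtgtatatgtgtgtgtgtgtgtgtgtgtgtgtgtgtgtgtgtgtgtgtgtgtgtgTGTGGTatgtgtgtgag

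Myc, the gene of the growth-promoting factor MYC, had the highest share of its window in H3K27ac of the 10 loci in every list. In its window (chromosome 15, gene body 61985391 to 61990374, plus strand), peaks covered 9.71 kb at D0, 10.6 kb (W1), 11.97 kb (W2), 10.5 kb (W6) and 6.36 kb (W12). Its start site peak was in the top 1.79% of peaks or better in every list (1.19% at D0, 0.492% (W1), 0.726% (W2), 1.79% (W6) and 1.47% (W12)). The site around the start spanned 6009 bp at D0, 7096 bp at W2 and 3927 bp at W12, so the lower call at W12 came with a narrower start site peak. Of the smaller D0 peaks, one of 941 bp, 11.3 kb downstream, was also in the W2 list but not at W12. The site at the start of Pvt1, a long non-coding RNA gene 51.1 kb downstream, was in all 4 earlier lists but not at W12. It covered 288 bp at D0 (rank 98.8%), 1901 bp at W1 (51.6%), 786 bp at W2 (69.8%) and 1761 bp at W6 (35.2%). A peak of 521 bp, 41.3 kb downstream, was in the W12 list only. The W12 call was lost with peaks above the list median only, at a fold of 2 and after scaling.

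Mycn, the paralogue of Myc best known from neural tissue, was the opposite case. No H3K27ac peak touched its window (chromosome 12, gene body 12936093 to 12941914, minus strand) at D0, W1, W6 or W12. At W2 there was a single peak of 514 bp, just over the limit for a call, with its summit 442 bp upstream of the start and a rank of 85.9%. The call was lost with peaks above the list median only, with the gene body alone and after scaling. The 300 bases around that summit (chr12:12942206-12942505, minus strand) are shown as the sole acetylated stretch of this locus, and they held none of the motif letters.
Mycn W2 peak: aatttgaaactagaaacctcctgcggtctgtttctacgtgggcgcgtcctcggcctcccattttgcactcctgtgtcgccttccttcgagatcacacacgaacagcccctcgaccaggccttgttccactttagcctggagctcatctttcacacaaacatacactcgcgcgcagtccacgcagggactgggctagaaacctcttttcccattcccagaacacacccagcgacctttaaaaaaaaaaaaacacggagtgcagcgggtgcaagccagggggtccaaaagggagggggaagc

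Trp53 (chromosome 11, 69580359 to 69591873, plus strand) encodes p53 and shares its start region with Wrap53, which is among 7 other protein-coding genes that start in its window. Peaks covered 3.91 kb at D0, 5.40 kb (W1), 4.06 kb (W2), 6.01 kb (W6) and 1.65 kb (W12). The site over the Trp53 and Wrap53 starts was present throughout, with 2342 bp at D0, 3325 bp (W1), 2831 bp (W2), 3073 bp (W6) and 1072 bp (W12). Its rank was best at W2 (top 7.67%) and lowest at W12 (29.9%). Whether acetylation there belongs to Trp53 or to its neighbours cannot be told apart. Without peaks within 1 kb of another protein-coding gene's start, D0 had no cover left and W12 kept 1.07 kb. The W12 direction thus turned, and the W6 call was lost. That W6 call was also lost with 10 kb flanks, the gene body alone, peaks above the list median, a fold of 2 and scaling.

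Mki67 encodes Ki67, a nuclear protein present in dividing cells and a common marker of proliferation. In its window (chromosome 7, gene body 135689784 to 135716361, minus strand), H3K27ac covered 3.31 kb at D0, 4.02 kb (W1), 2.24 kb (W2), 3.29 kb (W6) and 1.67 kb (W12). A peak over the start was present at D0 (1178 bp) and W6 (1381 bp). At W1 the nearest peak lay 672 bp upstream, and at W2 and W12 no peak lay within 1 kb. A peak 19.0 kb upstream, in intergenic sequence, was called at W1 (462 bp), W2 (1390 bp) and W6 (896 bp) and at neither D0 nor W12, and at W2 it was the highest-ranked peak of the window, in the top 25.1%. It ranked at 77.5% at W1 and 50.7% at W6, in the lower part of those lists. H3K4me1 domains covered it at all 5 time points. Of the W12 cover, 843 bp lay by a start of the neighbouring gene Ptpre, 398 bp in a Ptpre intron and 430 bp in a coding exon of Mki67. The W12 call for this locus was lost at a fold of 2.

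The 300 bases before the Mki67 start (chr7:135716362-135716661, minus strand) and around the summit of the upstream peak (chr7:135735206-135735505, minus strand) are shown because their acetylation came and went at different times. The promoter held 1 match to the E2F letters GCGCCAA, read as TTGGCGC on this strand and beginning at base 216. Of 41493 windows of 300 bases before protein-coding starts, 2.82% held those letters. The upstream window held none of the motif letters, and the GC content was 73.7% in the promoter and 50.3% in the upstream window.
Mki67 promoter: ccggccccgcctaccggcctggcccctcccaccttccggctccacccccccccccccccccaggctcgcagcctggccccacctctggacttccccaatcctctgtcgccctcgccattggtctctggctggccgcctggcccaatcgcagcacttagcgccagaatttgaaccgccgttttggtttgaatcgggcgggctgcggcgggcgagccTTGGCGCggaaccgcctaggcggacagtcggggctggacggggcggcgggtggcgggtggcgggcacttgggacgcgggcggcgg
Mki67 upstream peak: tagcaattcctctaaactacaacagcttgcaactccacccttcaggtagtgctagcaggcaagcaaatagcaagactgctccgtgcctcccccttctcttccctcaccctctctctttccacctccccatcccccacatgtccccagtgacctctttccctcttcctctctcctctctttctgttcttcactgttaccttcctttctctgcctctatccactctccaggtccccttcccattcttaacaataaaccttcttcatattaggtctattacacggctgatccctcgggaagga

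**Figure D2:**
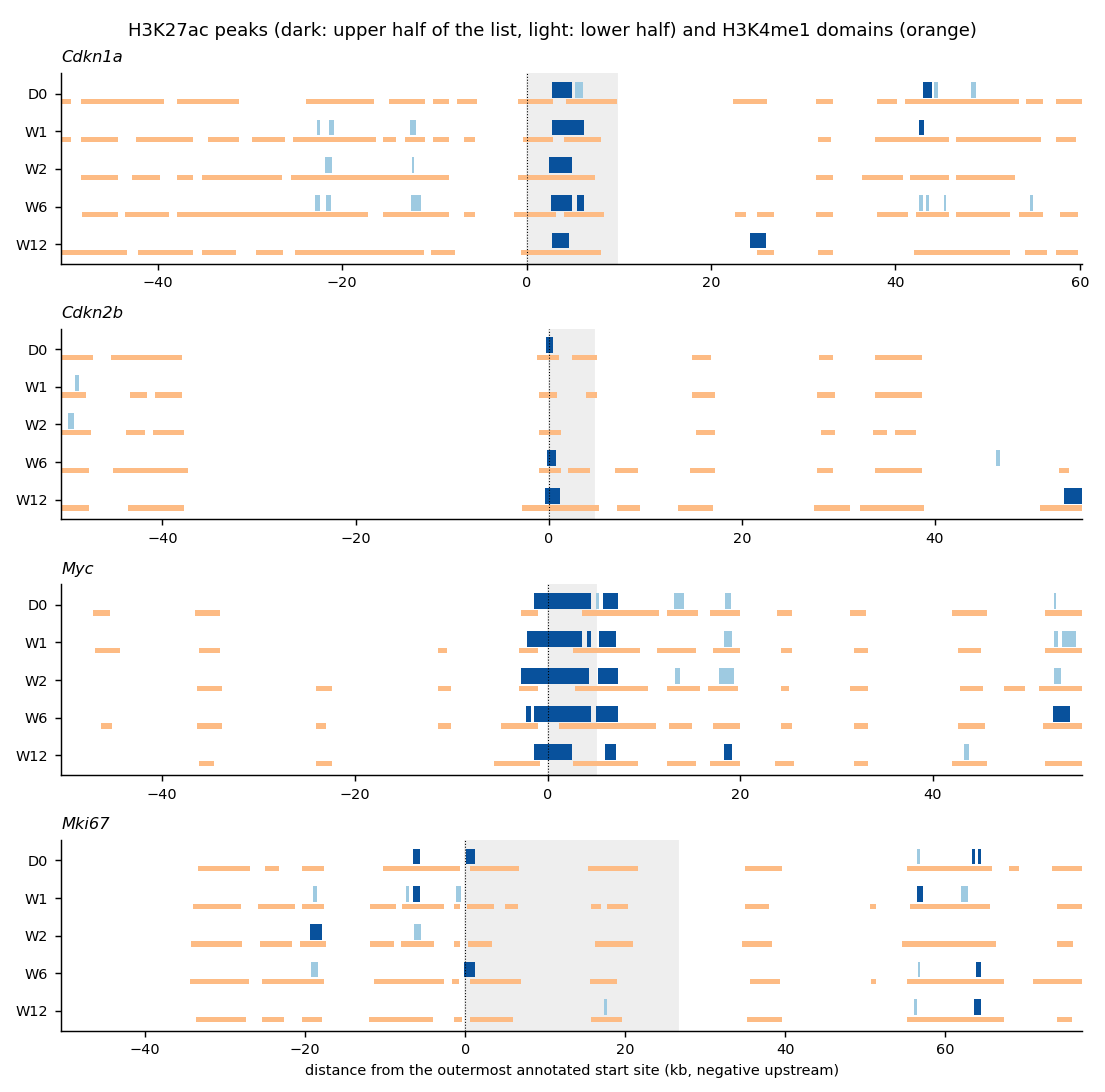
H3K27ac peaks (blue, dark where ranked above the median of their list) and H3K4me1 domains (orange) of the Cdkn1a, Cdkn2b, Myc and Mki67 windows at D0, W1, W2, W6 and W12, by distance from the outermost annotated start (kb, negative upstream, gene body shaded). The Cdkn1a peaks 11.5 kb and 21.7 kb upstream and the Mki67 peak 19.0 kb upstream appear at W1, W2 and W6 alone, the Cdkn2b start peak is missing at W1 and W2, and all 4 windows hold H3K4me1 domains at every time point.

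H3K4me1 gave fewer calls than H3K27ac at these loci, but the rule differed likewise over all protein-coding genes. There, 2.5% to 9.03% were called higher in H3K4me1, against 13.7% to 25.6% in H3K27ac. Lower calls made up 18% to 19.7% and 11% to 37.7%. All 10 members had a domain within 1 kb of a start site at every time point, where the share over all protein-coding genes was 64.3% to 68.9%. Ccnd1 was called lower at W1 (51.1 kb at D0 against 32.6 kb, background 18% lower and 2.5% higher) and again at W2 (32.6 kb, background 19.6% and 9.03%), and Cdk6 at W2 (95 kb against 58.8 kb) and W6 (53 kb, background 18.6% and 7.41%), before it stood at 96.6 kb at W12. Ccnd2 was called lower at W12 (29.4 kb against 19.4 kb, background 19.7%). The only higher calls were Cdkn2a and Cdkn2b at W12, where the background was 7.42%. Domains covered 15.4 kb of the Cdkn2a window at D0, 14.6 kb (W1), 10.6 kb (W2), 21 kb (W6) and 37 kb (W12). In the Cdkn2b window they covered 23.2 kb at D0, 18.6 kb (W1), 17.0 kb (W2), 27.04 kb (W6) and 36.5 kb (W12). Both were lowest at W2 and highest at W12. The Cdkn2a call held under all 9 alternatives, whereas the Cdkn2b call was lost under 4 of them. The Ccnd1 calls and the Ccnd2 call were lost with equal numbers of domains, at a fold of 2 and after scaling, and those of Cdk6 at a fold of 2. The W2 call of Ccnd1 was also lost with 10 kb flanks and with the gene body alone, and that of Cdk6 with domains above the list median only.

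The remaining loci were not called at any time point. Cdkn1a had the highest share of its window in H3K4me1 at every time point, from 54.5% to 62.8%, above at least 97.3% of all protein-coding genes. Mki67 had 37.1% to 44.9% and Myc 28.6% to 32.6%. Mycn had the lowest share in every list but W2, with 10.4% at D0, 7.37% (W1), 8.69% (W6) and 10.02% (W12), in 2 or 3 domains. The Trp53 window ranged from 25.4 kb at W12 to 33.4 kb at W2, which is within the limit for a call.

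**Figure D3:**
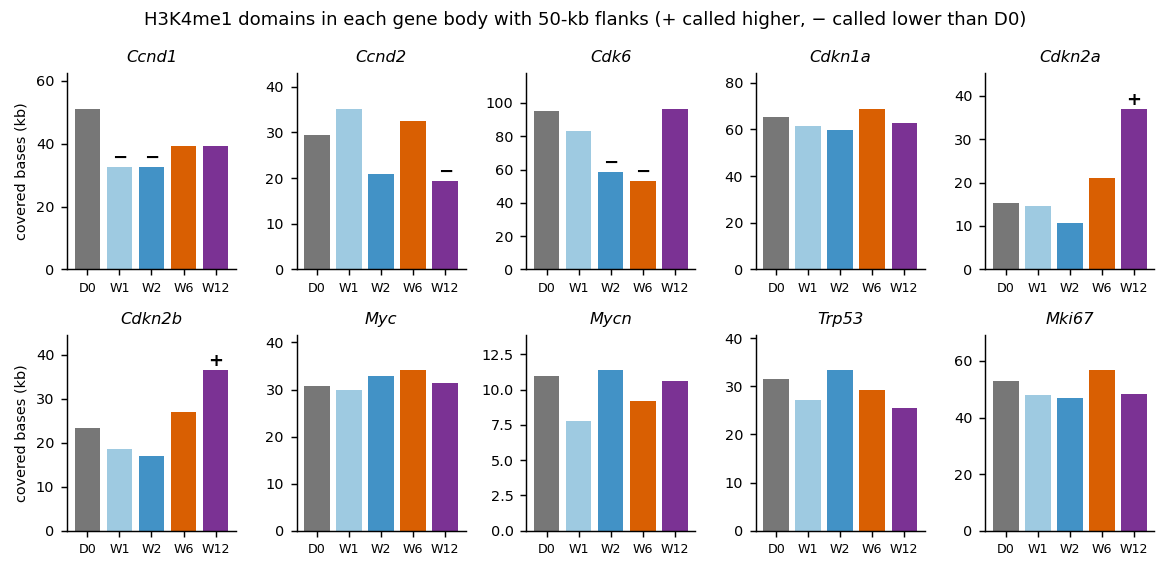
Bases covered by H3K4me1 domains (kb, linear axis from 0, own scale per gene) in the gene body with 50-kb flanks of each member, at D0, W1, W2, W6 and W12, 1 pooled list per bar and so without error bars. Signs mark calls against D0: Cdkn2a and Cdkn2b reach 37 kb and 36.5 kb at W12, and Cdk6 is lower at W2 and W6 only.

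Single intervals were followed as well. Their backgrounds, here and in culture, take all intervals of a list, near genes or not, whereas the 9 regions are gene windows. At D0, H3K4me1 covered a median of 28.8% of a member's window, against 18.3% over all protein-coding genes. The sets are thus not matched, and whether this shapes the shares below was not tested. In the 9 regions, 71 of 100 D0 domains of H3K4me1 (71%, 95% Clopper-Pearson interval 61.1% to 79.6%, for counting error only) had a domain in all 4 later lists, against 53.3% of all D0 domains. For H3K27ac it was 12 of 39 D0 peaks (30.8%, 17.0% to 47.6%), against 34.3% of all. Lost for good were 7 H3K4me1 domains (7%, 2.86% to 13.9%, background 13.7%) and the 4 H3K27ac peaks above (10.3%, 2.87% to 24.2%, background 20%). No H3K27ac peak of W2 was absent at D0 and kept at W6 and W12, 0 of 30, for which the interval reaches 11.6% and the background was 6.08%. Of the H3K27ac peaks in these regions, 16 of 42 at W1 were absent at D0 (38.1%, background 41.3%), 7 of 30 at W2 (23.3%, background 40.1%), 13 of 40 at W6 (32.5%, background 39.8%) and 6 of 27 at W12 (22.2%, 8.62% to 42.3%, background 56.2%). Of the 39 D0 peaks, 14 had no counterpart at W1 (35.9%, background 37.4%), 17 at W2 (43.6%, background 38.6%), 11 at W6 (28.2%, background 37.8%) and 18 at W12 (46.2%, background 53.7%). The share of new peaks was thus below its background in each list, and the share of missing peaks in each list but W2. The 95% interval left out the background for new peaks at W12 only. In all other of these H3K27ac comparisons with D0 it held the background, as at W2 for new peaks (9.93% to 42.3%) and at W12 for missing peaks (30.1% to 62.8%). Peaks cluster in the 9 regions and are not separate draws, so these intervals are no test of the regions.

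For H3K4me1 the counts of new domains were 4 of 100 at W1 (4%, background 5.96%), 7 of 87 at W2 (8.05%, background 20%), 15 of 100 at W6 (15%, background 17.1%) and 11 of 96 at W12 (11.5%, background 15.6%). Missing domains numbered 13 of 100 at W1 (13%, background 27.8%), 25 at W2 (25%, background 32.4%), 16 at W6 (16%, background 26.6%) and 16 at W12 (16%, background 31.2%).

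Of 87 H3K4me1 domains at W2, 3 were gained by then and kept (3.45%, background 5%). They comprised 3600 bp in a Cdk6 intron 55.5 kb downstream of the start, 1200 bp upstream of Cdk6 at 37.5 kb, and 1600 bp upstream of Myc at 23.2 kb. The widest of those lost for good was 3400 bp at the 3′ end of Ccnd1, over a UTR of LTO1, with a rank of 90.1% in the D0 list. The others lay at Ccnd1, Ccnd2, Cdk6, Mki67, Mycn and Trp53 and were 1200 to 2400 bp wide.

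The same rule was applied to 34 other genes of the cell cycle, a list chosen with earlier results of these data known. At W6, 18 of the 34 were called higher in H3K27ac and none lower, against backgrounds of 25.6% and 11%. At W2, 9 of the 33 with a peak were called higher (background 21.5%) and 4 lower (13.9%), and 5 and 4 after scaling to list cover. At W1 the counts were 3 higher and 5 lower, where the background was 15.8% each way. At W12 the balance was the other way, with 1 called higher (Max) and 10 lower, a share of lower calls below the background of 37.7%. Scaled to list cover, the W6 count was 10 higher (background 18.8%) and none lower. The W6 genes called before scaling included cyclins (Ccnd3, Ccne1, Ccna2, Ccnb2), Cdk4, the inhibitors Cdkn1b, Cdkn1c, Cdkn2c and Cdkn2d, E2f1, the replication gene Mcm2 and the mitotic kinases Aurka and Plk1, so drivers and inhibitors of division are both among them. Their windows can also hold peaks of neighbouring genes. Whether the cover belongs to the named genes was not tested. In H3K4me1 these genes were called higher once in all 4 comparisons (Aurka at W12) and lower 7, 4, 6 and 3 times at W1, W2, W6 and W12, at backgrounds of 18% to 19.7%.

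Among those called at W2 for H3K27ac, the largest ratios to D0 were those of Ccne1 (cyclin E1, no cover at D0 and 1102 bp at W2), Max (the partner of MYC, 2199 bp and 8827 bp, 4.01 times) and Ccna2 (cyclin A2, 402 bp and 1335 bp, 3.32 times). The smallest were those of Bub1, a mitotic checkpoint kinase (1419 bp and none), Top2a, a topoisomerase of dividing cells (9117 bp and 4872 bp, 0.534 times), and Mdm2, which degrades p53 (5413 bp and 3444 bp, 0.636 times). These are the extremes of the calls in each direction, chosen by their ratio. At the start sites, 23 of the 34 had an H3K27ac peak at D0, 22 (W1), 25 (W2), 33 (W6) and 24 (W12). Over all protein-coding genes the shares were 44.5%, 43.1%, 44.1%, 48.4% and 36.2% in the same order, also highest at W6.

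**Figure D4:**
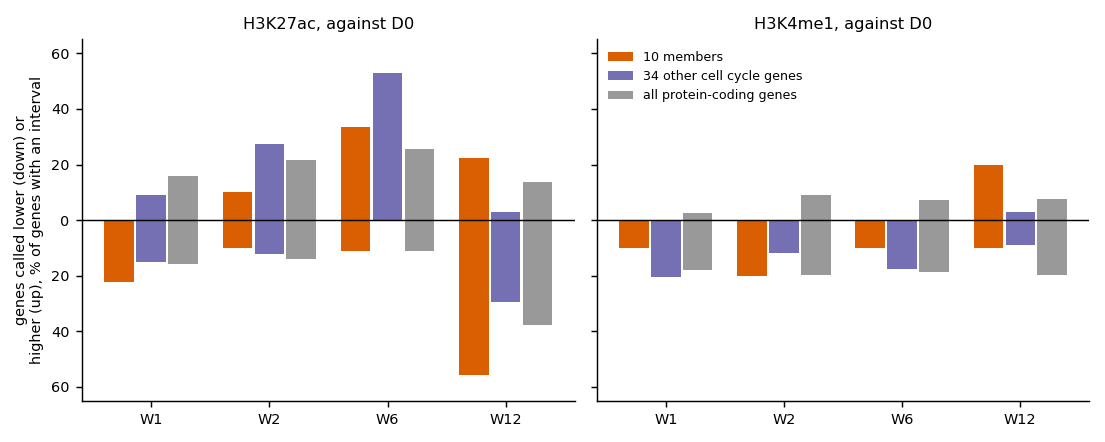
Share of genes called higher (up) or lower (down) than D0 in covered bases (percent of genes with an interval in either list, linear axis), for the 10 members, 34 other cell cycle genes and all protein-coding genes, at W1, W2, W6 and W12, for H3K27ac (left) and H3K4me1 (right). For H3K27ac, 18 of the 34 genes are called higher at W6 and none lower, and 5 of 9 members are called lower at W12 where 37.7% of all genes are.

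In cultured keratinocytes, the H3K4me1 cover of a single member passed the call with any SOX9 variant. It was Mycn with WT SOX9, at 7.25 kb without DOX and 11.1 kb with it (1.53 times), where 14.8% of all protein-coding genes were called higher and 6.87% lower. Mycn stood at 8.99 kb with ΔHMG and 9.87 kb with ΔTA, below the limit for a call in both. The call was lost with intervals above the list median only, with equal numbers of intervals, at a fold of 2 and after scaling. With ΔHMG and with ΔTA no member was called (backgrounds 7% and 14.6% higher, 3.88% and 3.22% lower). The median ratio to no DOX over the 10 members was 0.899 with WT, 0.885 with ΔHMG and 0.998 with ΔTA, beside 1.05, 1.02 and 1.07 over all genes.

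The other members did not pass the call with any variant. Ccnd1 had 24.9 kb without DOX, 18.7 kb with WT, 23.2 kb with ΔHMG and 23.3 kb with ΔTA. Cdkn1a had 22.6 kb, 17.0 kb, 17.3 kb and 18.4 kb, Cdkn2a 19.6 kb, 14.96 kb, 16.2 kb and 16.7 kb, and Cdkn2b 18.9 kb, 15.8 kb, 15.9 kb and 14.2 kb, in the same order. Ccnd2 had 11.1 kb, 12.04 kb, 8.86 kb and 11.3 kb. Cdk6 had 32.8 kb, 31.6 kb, 37.2 kb and 37.8 kb, and Myc 16.3 kb, 13.7 kb, 14.6 kb and 16.0 kb. Trp53 had 14.9 kb, 16.6 kb, 13.1 kb and 16.7 kb, and Mki67 19.7 kb, 21.3 kb, 19.9 kb and 24.6 kb.

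**Figure D5:**
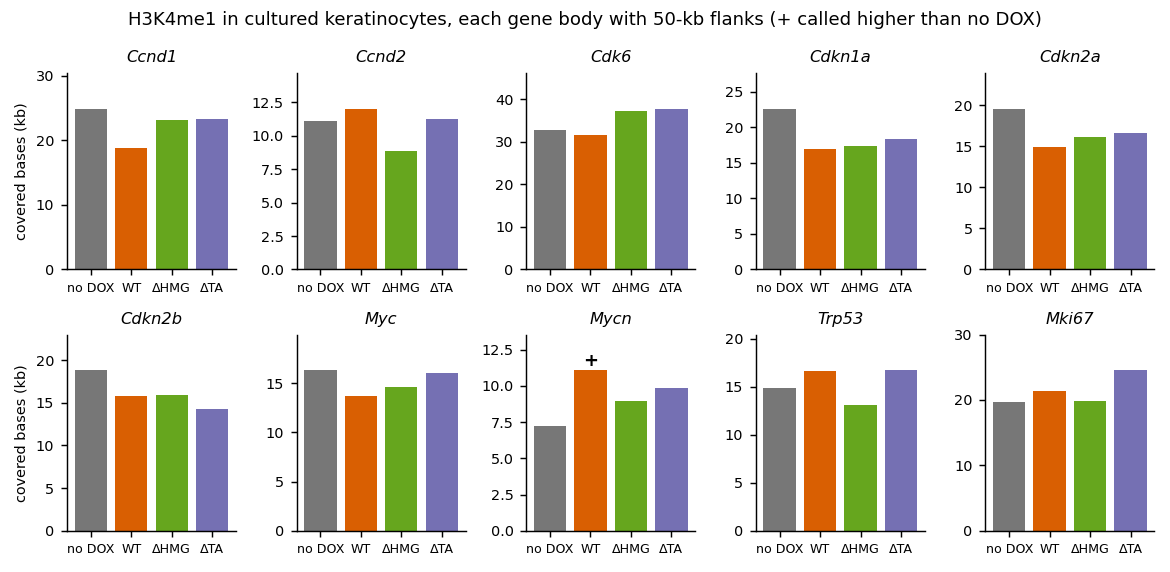
Bases covered by H3K4me1 intervals (kb, linear axis from 0, own scale per gene) in the gene body with 50-kb flanks of each member in cultured keratinocytes without DOX and with DOX-induced WT, ΔHMG or ΔTA SOX9, 1 pooled list per bar and so without error bars. A plus sign marks the single call, Mycn with WT at 11.1 kb.

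Intervals at the start sites were counted as well. Without DOX, 3 members had an interval within 1 kb of a start (Cdkn1a, Cdkn2a and Mki67), where 56.8% of all protein-coding genes did. With WT there were 7, adding Ccnd1, Ccnd2, Cdkn2b and Mycn (background 57.7%), with ΔHMG 2 (53.4%) and with ΔTA 4, adding Mycn (54.2%). Within 2500 bp the counts were 9 without DOX, 10 with WT, 8 with ΔHMG and 8 with ΔTA, so the gap between WT and no DOX largely closed. With intervals above the list median only, they were 2, 4, 2 and 2 in that order.

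Of 123 intervals with WT in the 9 regions, 20 were absent without DOX (16.3%, 10.2% to 24.0%, background 29.1%), and 11 were in neither mutant list either (8.94%, 4.55% to 15.4%, background 20.6%). Among those 11 were the intervals at the start of Cdkn2b (749 bp, rank 98.2%), Ccnd2 (295 bp, 24.6%) and Ccnd1 (889 bp, centred 1.06 kb upstream, 49.8%). The widest was 1134 bp in an intron of Fam133b, in the Cdk6 window. Of 126 intervals without DOX, 25 were absent with WT (19.8%, 13.3% to 27.9%, background 25.1%), 14 of these with WT alone (11.1%, background 11.9%), and 7 were absent with all 3 variants (5.56%, background 6.13%). With ΔHMG, 24 of 142 were new (16.9%, background 19.3%) and 13 missing (10.3%, background 15.6%), and with ΔTA, 30 of 140 were new (21.4%, background 25.8%) and 16 missing (12.7%, background 17.5%).

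Next to Myc, WT lacked an interval 34.2 kb upstream that ranked in the top 2.37% of the list without DOX, and another, 16.7 kb downstream, in the top 2.85%. Myc had no interval that was gained with WT. The H3K27ac site of skin at 16.7 kb downstream of Myc, which was in all lists but W6, overlapped the latter interval. It was still covered with ΔHMG and ΔTA.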

How the data were processed

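Chromatin of sorted EpdSCs and cultured keratinocytes was profiled by MINT-ChIP, in which barcoded chromatin is pooled for precipitation. The authors split reads by barcode, trimmed them with Skewer, aligned them to GRCm38/mm10 with Bowtie2 (2.2.9 in the submitters' processing notes), removed duplicates with Picard and pooled replicates. They called H3K27ac peaks with MACS2 (2.1.1) and broad domains with epic2 (SICER 0.0.36 in the notes). The deposited H3K27ac and culture lists give a fold enrichment, a score and a −log10 q-value per interval. The deposited H3K4me1 lists of skin give a p-value per domain. The culture lists have the layout of MACS2 broad peaks, so their caller is not certain. Control tracks and calling settings are not given in the sources used here. Read depth is not given either and limits which weak intervals were called. Steps in the H3K27ac fold values give a background pileup (stacked reads per base) of 0.500 at D0, 0.299 (W1), 0.425 (W2), 0.677 (W6) and 0.411 (W12). It was thus highest at W6 and lowest at W1, and its part in the calls was not tested.

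Gene bodies and start sites came from GENCODE M21 (basic set). Covered bases, overlaps of at least 1 bp and ranks (by score, or p-value and then width) were computed in Python 3.11.15 with numpy 2.4.6 and pandas 2.3.3. The background of each call is the share of protein-coding genes, or of all intervals of a list, that passed the same rule. Interval functions were tested on simulated data (3427 checks, 0 wrong). Members, gene lists and rules were chosen with earlier results of these data known. Named genes were the 10 members, neighbours starting within 1 kb of a named interval, and the 3 largest and 3 smallest ratios at W2 among other cell cycle genes. The upstream peaks of Cdkn1a and Mki67, the W12 peak near Cdkn2a and single sites with their neighbouring genes were singled out after their values were seen. The 14 barcode tables and total H3 were not used.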

Additional observations from a re-analysis of the deposited data

How the results depend on the processing

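Calls were recomputed with 10 kb flanks, the gene body alone, intervals above the list median, equal numbers of top intervals, intervals under 1000 bp apart joined, a lower and a higher fold limit (the higher was 2), without intervals at other protein-coding genes' starts and, chosen after seeing the data, scaled to list cover. Of 23 calls, 3 were still called in the same direction under all 9 alternatives. None but Trp53 in H3K27ac at W12 turned (to 1 for higher, 1.07 kb against 0). A fold of 2 lost 14 of the 23 and the lower fold added 24. For H3K27ac, the members called were 2 at W1 (1 at a fold of 2), 2 at W2 (4 with 10 kb flanks, above the median, joined and without other starts, 7 at the lower fold, 6 scaled) and 4 at W6 (2 with 10 kb flanks, gene body alone and scaled, 1 above the median, 0 at a fold of 2). At W12 they were 7 and moved by less than 1.5 times. For H3K4me1 they were 1 at W1 (0 to 4), 2 at W2 (0, 1 or 5), 1 at W6 (0, 2 or 3) and 3 at W12 (1 at a fold of 2). In culture they were 1 with WT (0, 3 or 4), 0 with ΔHMG (2 or 3) and 0 with ΔTA (1, 2 or 3). H3K27ac peaks lost for good were 4, and 7 at 50% overlap, 0 above the median and 1 with 10 kb flanks. With 10 kb flanks H3K4me1 domains kept or lost for good were 1 and 2, and culture intervals gained or lost with WT 9 and 12. Start site counts in culture moved to 9 without DOX, 8 with ΔHMG and 8 with ΔTA within 2500 bp, and to 4 with WT and 2 with ΔTA above the median, while those of skin moved by less than 1.5 times. The cause of these shifts was not tested. No paired analysis was possible because each list pools its replicates. A weak interval near the calling threshold can be present or absent by depth alone, and every difference compares 2 pooled lists.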
